A study of Mus musculus with 25 samples.

Results

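The genes described here are 49 mouse genes of the G2 phase and of mitosis, the part of the cell cycle in which a cell condenses its chromosomes, pulls them apart and divides. They were taken by name from a list, not by any measured value, and all 49 were found among the 22439 gene symbols of the deposited count matrices. The matrices hold droplet 3′ single-cell RNA-seq data. The cells were myeloid, sorted by fluorescence from lesions of the spinal cord or, in controls, after a laminectomy alone, and the level of the genes was followed by cell type, time point and cluster. The list covers the kinase CDK1 with its cyclins, the mitotic kinases, the spindle checkpoint, the centromere and kinetochore, the kinesins and other spindle proteins, cytokinesis, and proteins that shape chromosomes.

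As background, CDK1 bound to a B-type cyclin starts mitosis, and the anaphase-promoting complex ends it by marking the cyclins and other proteins for destruction. Genes of this phase are kept off in resting cells by the DREAM complex and are switched on in G2 by the MuvB core with B-MYB and FOXM1, partly through a promoter element called the cell cycle homology region. Microglia, the resident macrophages of the spinal cord, divide rarely in the healthy adult and multiply in place after injury, whereas monocytes that enter a lesion come from dividing precursors in the bone marrow.

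The 25 libraries were each made from tissue of 1 to 3 pooled mice, so the library is the replicate. Mice carried Cx3cr1CreERT2, an inducible Cre at the locus of a fractalkine receptor that microglia and many monocytes express, and only part of them also carried R26tdTomato, a reporter that Cre makes red. Without the reporter, all YFP+ cells were sorted together (12 libraries, called mixed). With the reporter, RFP+/YFP+ cells were sorted as resident (5 libraries) and RFP-/YFP+ cells as infiltrating (7 libraries), so strain and sort change together. Libraries came from laminectomy controls (Ctrl, 2 libraries) and from injured cords, with 5 libraries at 1 day (D1), 4 at 2 days (D2), 7 at 3 days (D3), 5 at 10 days (D10) and 2 at 21 days (D21). The labels of 1 library at D3 disagree on its sort; it is called D3_conflict 1 and entered none of the main comparisons, only 1 alternative macrophage fit. Both sexes are present: of the microglia libraries the 3 of D1 are all male, and the controls are 1 female (mixed) and 1 male (resident). The p-values measure the spread between these libraries, part of which may be technical.

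The data held 30958 cells, with 155 to 3800 cells and 486649 to 33204422 UMIs per library, and a median of 1577 to 11233 UMIs per cell. The libraries lay in 7 sequencing pools, and 127 cell barcodes occurred in more than 1 library. The deposited cell type code called microglia here (13289 cells) passed 9 of 9 microglia markers. The code called macrophages, which takes in monocytes, held 12841 cells and passed 6 of 8 monocyte and 6 of 9 macrophage markers. Dendritic-like (2712) and neutrophil-like cells (2116) make up the rest. Levels are given as counts per 1000000 UMIs (CPM) of all cells of a type in 1 library, for sums of at least 20 cells, and a 3′ count says nothing about levels between different genes. In such sums, more cells in mitosis and more RNA per dividing cell cannot be told apart.

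In microglia the summed CPM of the 49 genes was low after laminectomy, reached its highest values at D2 and D3 and lay between the 2 controls at D21. The control libraries stood at 180 CPM (Ctrl_mixed 1) and 402 CPM (Ctrl_resident 1). At D1 the mixed libraries 1, 2 and 3 stood at 709, 577 and 181 CPM, which overlaps the controls. At D2 the level was 6230 and 5655 CPM in the mixed libraries 1 and 2 and 4261 CPM in the resident library, and every D2 library lay above every library of Ctrl and D1. The sum of mixed library 2 at D2 holds only 23 cells. At D3 the mixed libraries 1, 2 and 3 stood at 3403, 3523 and 2967 CPM and the resident libraries 1 and 2 at 2936 and 4261 CPM. At D10 the levels were 842, 465 and 767 CPM in mixed libraries 1 and 2 and the resident library, all above the controls and all below D3. The D21 library stood at 287 CPM, between the 2 controls. As means over libraries, the level was 291 ± 157 CPM in Ctrl (SD, n = 2), 489 ± 275 at D1 (n = 3), 5382 ± 1012 at D2 (n = 3), 3418 ± 538 at D3 (n = 5) and 691 ± 200 at D10 (n = 3). Relative to Ctrl the D2 mean was 18.5-fold and the D3 mean 11.7-fold; D1 stood at 1.68-fold, D10 at 2.37-fold and D21 at 0.986-fold. These folds are of plain CPM. The fit described below also scales each sum, by factors of 1.384 and 1.461 in the controls, 0.8428 to 0.9054 at D1 and 0.7706 at D21. A higher factor lowers the level, so that scaling raises D1, D10 and D21 relative to the controls. The fitted changes therefore lie on another scale than these folds, and D21 between the controls holds for plain CPM only. The folds also depend on the control. With Ctrl_mixed 1 as the only control, the D2 mean was 29.9-fold, the D3 mean 19.0-fold and the D10 mean 3.84-fold. With Ctrl_resident 1 as the only control, they were 13.4-fold, 8.5-fold and 1.72-fold.

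**Figure D1:**
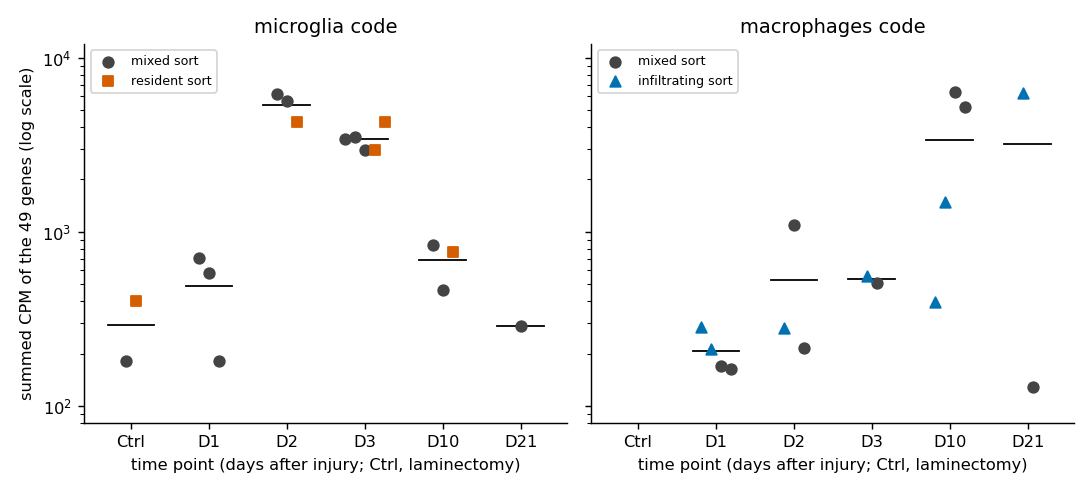
Summed level of the 49 genes in CPM (log axis) by time point, 1 point per library, for the microglia and the macrophage code; colour and shape give the sort and black lines the mean. Microglia lay between 4261 and 6230 CPM at D2 against 180 and 402 CPM in Ctrl, and macrophages spread from 397 to 6362 CPM at D10.

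Some libraries of different time points shared a sequencing pool. In the pool with all 3 resident libraries of Ctrl, D2 and D10, the level was 402, 4261 and 767 CPM: 49 of 49 genes lay higher at D2 than in Ctrl, and 49 of 49 lay lower at D10 than at D2. In the pool of the mixed control, both D10 libraries lay above it, 4.68-fold with 49 genes higher and 2.58-fold with 46 genes higher. In the pool with D2 and D3, the D3 library stood at 0.476 and 0.525 of the D2 libraries. In the pool with D1 and D21, the D21 library stood at 0.404 and 0.497 of D1_mixed 1 and 2, but at 1.59 times D1_mixed 3, with 40 genes higher. Each of these within-pool values compares single libraries and has no test.

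Gene by gene, counts summed per library and cell type were tested with edgeR (time point and sex as terms, adjusted over all genes tested), and in microglia all 49 genes passed the expression filter among 10801. At D1, 22 of 49 genes rose against Ctrl, where 23.9% of all genes tested rose. At D2, 49 of 49 rose, against 17.6% of all genes, and at D3 again 49 of 49, against 20.1%. At D10, 29 of 49 were still above Ctrl, where 8.06% of all genes were, and at D21 there were 3 of 49 (Ube2c, Cdkn3 and Cenpa), close to the 6.12% of all genes. From D1 to D2 all 49 rose, where 4.76% of all genes did, and from D1 to D3 all 49, where 8.62% did. From D3 to D10, 45 of 49 fell, where 3.92% of all genes fell; Hmmr, Kif15, Mki67 and Ndc80 did not pass. The largest falls were those of Ccnb1 (-3.43), Kif23 (-3.25) and Ccna2 (-3.13) on the log2 scale. The median log2 fold change of the 49 genes against Ctrl was highest at D2 (5.67) and D3 (5.25), and lower at D1 (2.01), D10 (2.74) and D21 (1.78), beside medians of all genes of -0.02, -0.04, -0.01, -0.01 and -0.08 in the same order. Hmmr had no count in the controls; with it at the lower bound that 3 counts give, the D21 median is 1.69 and the others do not move. With another scaling of the counts (RLE), the median of all genes against Ctrl shifted to values between -0.18 and -0.11.

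Against Ctrl, the D3 count was 9 with sequencing pool as a term, 30 with sums thinned to equal depth and 27 without clusters 6, 7 and 10, in which most of these UMIs lay, and the D2 count was 33 with thinned sums. Without Ctrl_mixed 1 the counts were 3 at D1, 3 at D10 and 0 at D21; the D1 count was 38 without D1_mixed 3 and 14 without D1_mixed 1, and the D10 count 2 with mixed libraries alone; the D2 and D3 counts stayed at 44 or more under every single library left out. The fall from D3 to D10 was called for 8 genes without D10_mixed 2 and for 0 with sequencing pool as a term. The rise from D1 to D2 was called for 3 genes with mixed libraries alone, 26 with thinned sums and 5 without clusters 6, 7 and 10. From D1 to D3 the last 2 of these alternatives gave 24 and 7 genes.

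Markers of cell identity also differed between these microglia sums. The 9 microglia markers summed to 27783 and 24728 CPM in the controls, 4657 to 8219 CPM at D1 and 6071 to 11772 CPM at D2, and later 9308 to 12936 CPM at D3, 13233 to 15588 CPM at D10 and 10748 CPM at D21. The 9 macrophage markers summed to 491 and 590 CPM in the controls, 3234 to 4830 CPM at D1 and 2446 to 2946 CPM at D2, and 2893 to 5205 CPM at D3, 3104 to 3720 CPM at D10 and 5231 CPM at D21. The 8 monocyte markers stood at 18.6 and 49.1 CPM in the controls, 203 to 478 CPM at D1 and 396 to 555 CPM at D2, and 167 to 717 CPM at D3, 240 to 292 CPM at D10 and 262 CPM at D21. So these marker levels had moved by D1, before the highest levels of the 49 genes, and at D21 they still lay away from the controls. Their part in the results was not tested.

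The libraries of 2 groups were also compared directly, without the fit. At D1, 6 of the 49 genes were higher in each of the 3 libraries than in both controls. This is a smaller share than the 20% of all genes (2158 of 10801), and fewer than the 22 genes called by the fit. The comparison used plain CPM, on which 6003 of 10801 genes lay below both controls at D1, while the fit also scaled the sums. The counts of 6 and 22 are thus on different scales. All 49 genes were higher in each of the 3 D2 libraries than in both controls, as were 19.1% of all genes. For D3 against Ctrl this held for 48 genes, against 11.0% of all genes, and for D10 against Ctrl for 33 genes, against 11.7%. The D21 library lay above both controls for 23 genes and below both for 7, where these shares were 13.8 and 75.5% of all genes on the CPM scale. For D10 below D3 the count was 44 genes, against 8.38%.

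**Figure D2:**
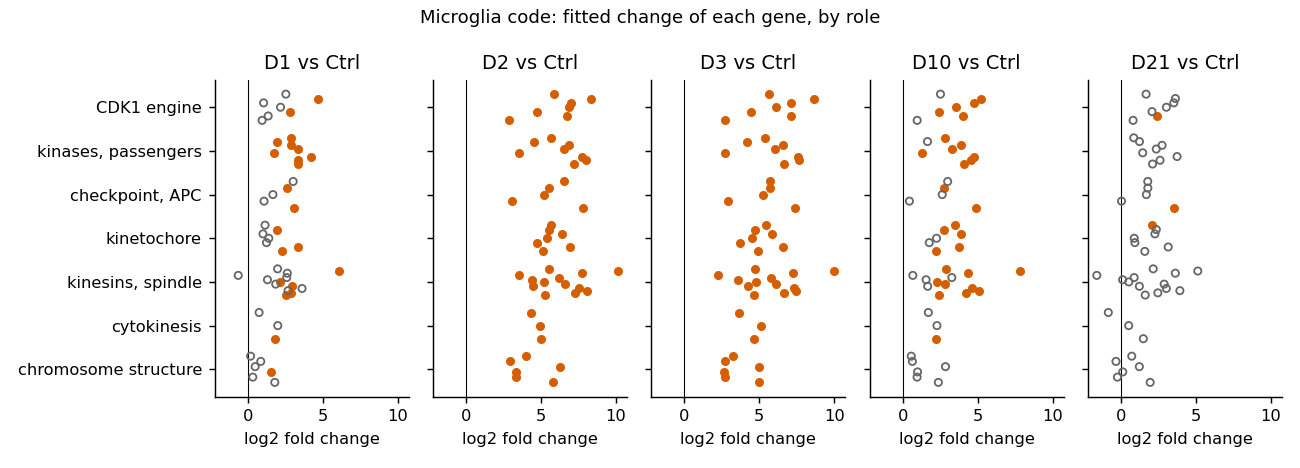
Fitted log2 fold change (edgeR) of each gene against Ctrl in microglia, by role, 1 panel per time point; filled points passed an adjusted p under 0.05 and open points did not. At D1 all 8 kinase and passenger genes are filled but 1 of 6 chromosome structure genes, where 23.9% of all genes rose. At D2 and D3 every point is filled.

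All 49 genes rose at D2, and their promoters were read from RefSeq (build GRCm38.p6; windows from 250 bases before to 50 bases after each annotated start). Windows were found for 41 of the 49 genes, 43 windows in all. The cell cycle homology region was searched as TTTGAA or TTCGAA and the box bound by NF-Y as CCAAT, each on both strands; the 2 motifs can share at most 1 end base. The first was in 35 of 43 windows (81.4%), against 19.2% of all 32851 windows, and within 50 bases of the start in 74.4%, against 5.31%. CCAAT was in 74.4%, against 37.4%, and at least 2 copies in 53.5%, against 11.7%. Both motifs together were in 67.4% of the windows, against 7.52%. In 5 windows neither was found, namely those of Birc5, Mad2l1, Nuf2, Nusap1 and Tacc3. A match is a description of these letters and shows no binding. The stretches upstream of the start of 7 genes are printed to show where the motifs lie. Capitals mark TTTGAA or TTCGAA and CCAAT, or their reverse complements. Each sequence runs 5′ to 3′ on the gene's own strand up to the base before the annotated RefSeq start. The GENCODE M21 gene start lies elsewhere for 6 of the 7 genes. It is 26 bases upstream for Cdk1, 31 for Ube2c, 9 for Cdc20 and 51 for Kif22, so the end of those stretches lies inside the GENCODE gene, and 21 and 18 bases downstream for Kif11 and Mki67.
Cdk1 (chr10:69352913-69353022, minus strand): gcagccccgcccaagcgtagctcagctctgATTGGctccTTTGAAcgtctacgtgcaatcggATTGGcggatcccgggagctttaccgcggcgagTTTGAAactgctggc
Cdc20 (chr4:118437344-118437453, minus strand): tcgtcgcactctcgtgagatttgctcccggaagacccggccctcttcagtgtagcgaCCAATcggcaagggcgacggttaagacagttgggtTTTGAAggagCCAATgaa
Ube2c (chr2:164769819-164769928, plus strand): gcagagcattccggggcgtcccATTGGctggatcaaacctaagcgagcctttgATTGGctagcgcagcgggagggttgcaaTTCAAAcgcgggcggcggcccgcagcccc
Kif11 (chr19:37376272-37376381, plus strand): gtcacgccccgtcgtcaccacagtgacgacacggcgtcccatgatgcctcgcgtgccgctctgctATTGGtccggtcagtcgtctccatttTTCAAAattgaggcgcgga
Kif22 (chr7:127042421-127042530, minus strand): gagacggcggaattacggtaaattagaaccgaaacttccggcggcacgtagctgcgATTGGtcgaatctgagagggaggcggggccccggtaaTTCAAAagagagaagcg
Top2a (chr11:99024190-99024299, minus strand): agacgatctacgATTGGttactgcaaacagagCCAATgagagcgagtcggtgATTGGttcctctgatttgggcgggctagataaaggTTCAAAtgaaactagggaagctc
Mki67 (chr7:135716380-135716579, minus strand): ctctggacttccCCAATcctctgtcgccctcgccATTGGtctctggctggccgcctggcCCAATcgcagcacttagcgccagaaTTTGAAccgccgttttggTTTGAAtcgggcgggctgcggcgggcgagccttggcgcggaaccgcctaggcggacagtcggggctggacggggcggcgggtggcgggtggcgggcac

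The CDK1 engine holds 7 genes: the kinase Cdk1, the cyclins Ccnb1, Ccnb2 and Ccna2 that switch it on, its small partner Cks2, the phosphatase Cdkn3 and Cdca3, which takes part in removing a CDK1 inhibitor. In microglia, 2 of 7 rose at D1, 7 of 7 at D2 and D3, 5 at D10 and 1 at D21, and 7 of 7 fell from D3 to D10. Of all genes tested, 23.9, 17.6, 20.1, 8.06 and 6.12% rose at D1, D2, D3, D10 and D21, and 3.92% fell from D3 to D10. The D1 count is near that share. The same shares stand beside the counts of every role below, and whether a role differs from all genes was not tested. Cdk1 stood at 4.29 and 16.7 CPM in the mixed and resident control, and at 59.9, 47.9 and 11.6 CPM in mixed libraries 1 to 3 at D1. It stood at 247 and 185 CPM in mixed libraries 1 and 2 and at 162 CPM in the resident library at D2. At D3 it stood at 188, 182 and 52.2 CPM in the mixed and 147 and 138 CPM in the resident libraries, and at D10 at 36.2, 25.7 and 41.7 CPM. So every D2, D3 and D10 library lay above both controls, while D1_mixed 3 lay between them. The log2 fold change against Ctrl was 2.79 (SE 0.70) at D1, 4.76 (SE 0.74) at D2 and 2.45 (SE 0.68) at D10, with edgeR adjusted p of 0.00361, 0.000251 and 0.0279. The 2 B-type cyclins differed at D1: Ccnb1 stood at 7.22, 5.70 and 0.464 CPM (controls 0.179 and 0.539), and Ccnb2 at 1.31, 1.99 and 0.232 CPM (controls 0.179 and 2.70). The log2 fold change was 4.72 for Ccnb1 (SE 1.24, edgeR adjusted p = 0.00516) and 1.06 for Ccnb2 (SE 1.12, edgeR adjusted p = 0.459); the difference between the cyclins was not tested. From D1 to D2, Ccnb2 had the largest change of all 49 genes, a log2 fold change of 5.94 (SE 0.71, edgeR adjusted p = 0.000178), from the values above to 112, 51.8 and 99.4 CPM. The controls held 2 counts of Ccnb1 in all, so its fitted change rests on those counts; at D10 against Ctrl the ratio of pooled levels was 26.4 (95% counting interval 7.08 to 222). Cks2 was already at 19.3 and 25.4 CPM in the controls and changed least at D2, by 2.84 on the log2 scale (SE 0.42, edgeR adjusted p = 0.00018).

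The mitotic kinases and chromosomal passengers hold 8 genes: Plk1 and Aurka with its activator Tpx2, which build the spindle poles, Aurkb with Birc5, Cdca8 and Incenp, which form the passenger complex that corrects chromosome attachment, and the kinase Pbk. This role had 8 of 8 genes up at D1, 8 of 8 at D2 and D3, 7 at D10 (all but Aurkb) and 0 at D21, and all 8 fell from D3 to D10. Aurkb stood at 1.43 and 5.93 CPM in the controls, at 12.5, 9.12 and 1.62 CPM at D1 and at 66.7, 37.0 and 47.9 CPM at D2. At D3 it stood at 53.6, 38.8 and 23.3 CPM in the mixed and 29.8 and 43.8 CPM in the resident libraries, and at D10 at 7.97, 4.90 and 6.65 CPM. The D10 values straddle the resident control. Birc5, also known as survivin, went from 0.357 and 8.09 CPM in the controls to 22.1, 19.7 and 0.464 CPM at D1 and 323, 281 and 235 CPM at D2. D1_mixed 3 lay between the 2 controls, and all D2 libraries lay far above. Plk1 had 2 counts in the controls and 525 at D2, a ratio of pooled levels of 197 (95% counting interval 54.3 to 1632). Incenp changed least of the 8 genes, with 10.2 and 11.3 CPM in the controls, 122, 88.8 and 78.0 CPM at D2 and a log2 fold change of 3.55 (SE 0.40, edgeR adjusted p = 2.14e-05).

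The checkpoint and ubiquitination role holds 5 genes: Bub1, Bub1b and Mad2l1, which delay anaphase until chromosomes are attached, and Cdc20 and Ube2c, with which the anaphase-promoting complex acts. Bub1b and Ube2c rose at D1, all 5 at D2 and D3, and Bub1b and Ube2c were still up at D10, while 5 of 5 fell from D3 to D10. Ube2c stood at 0.179 and 5.39 CPM in the controls and at 12.3, 13.1 and 3.25 CPM at D1. At D2 it stood at 416, 303 and 258 CPM, at D3 at 208, 204 and 198 CPM in the mixed and 185 and 204 CPM in the resident libraries, and at D10 at 37.8, 21.0 and 52.8 CPM. The D3 values lie close together, in a narrower range than the D2 values. It was 1 of the 3 genes up at D21, at 12.6 CPM in the single library, with a log2 fold change of 3.54 (SE 0.94, edgeR adjusted p = 0.027). With 1 library at D21, the fit assumes the spread of the other groups. The change of Ube2c at D21 was 1.66 without Ctrl_mixed 1, 1.17 without clusters 6, 7 and 10 and -2.10 with thinned sums, none of which passed. Cdc20 stood at 0.893 and 4.85 CPM in the controls, at 7, 4.56 and 0.928 CPM at D1 and at 76.2, 37.0 and 57.9 CPM at D2. Its D1 libraries overlapped the controls and it did not pass there (log2 fold change 1.68, SE 0.90, edgeR adjusted p = 0.132).

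The centromere and kinetochore role holds 7 genes: the centromeric histone Cenpa, the motor Cenpe, the large protein Cenpf, Knl1, Nuf2 and Ndc80, which bind microtubules, and Spc25, which anchors the complex of Ndc80 to the inner kinetochore. In microglia 3 rose at D1, 7 at D2 and D3, 5 at D10 and 1 at D21, and 6 fell from D3 to D10. Cenpa stood at 4.82 and 3.78 CPM in the controls and at 3.50, 8.26 and 3.25 CPM at D1, so these groups overlap. At D2 it stood at 187, 133 and 160 CPM, at D10 at 31, 17.7 and 48.8 CPM and at D21 at 11.5 CPM. It was up at D2 (log2 fold change 5.67, SE 0.47, edgeR adjusted p = 1.27e-06), at D10 (3.52, SE 0.44, edgeR adjusted p = 6.72e-05) and at D21 (2.06, SE 0.53, edgeR adjusted p = 0.0226). The D21 call, which rests on 1 library, was lost without either control library, with mixed libraries alone, with thinned sums and without clusters 6, 7 and 10. Cenpf stood at 0.715 and 3.78 CPM in the controls, at 2.84, 2.56 and 0.928 CPM at D1 and at 138, 81.4 and 105 CPM at D2. Ndc80 was the only kinetochore gene whose fall from D3 to D10 did not pass (log2 fold change -1.96, SE 0.68, edgeR adjusted p = 0.0836), with 11.4, 3.74 and 2.66 CPM at D10 against 15.7 to 31.8 CPM at D3.

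The kinesins and spindle proteins form the largest role, with 13 genes: the motors Kif11, Kif15, Kif20a, Kif20b, Kif22, Kif23, Kif2c and Kif4, and the microtubule-binding proteins Prc1, Nusap1, Hmmr, Tacc3 and Ckap2l. In microglia 5 rose at D1, 13 at D2 and D3, 9 at D10 and 0 at D21, and 11 fell from D3 to D10. Kif11, the motor that pushes the spindle poles apart, stood at 0 and 1.08 CPM in the controls and at 2.19, 1.99 and 0.232 CPM at D1. At D2 it stood at 71.2, 81.4 and 40.5 CPM and at D10 at 8.17, 2.57 and 3.99 CPM. All D2 and D10 libraries lay above both controls, which held 2 counts in all; the ratio of pooled levels at D2 was 176 (95% counting interval 48.5 to 1458). Hmmr, a hyaluronan-binding spindle protein, had 0 counts in the controls and 556 at D2, so its pooled level was at least 139-fold higher (3 counts over the control group as the floor). At D10 it was at least 22.6-fold higher. Nusap1, which bundles spindle microtubules, stood at 0 and 2.16 CPM in the controls and at 178, 126 and 106 CPM at D2. Kif15, a motor that backs up Kif11, was the only one of the 49 genes below Ctrl in the D1 fit, without passing (log2 fold change -0.63, SE 0.86, edgeR adjusted p = 0.574), at 2.84, 2.85 and 0 CPM against 2.32 and 7.55 CPM. At D2 Kif15 stood at 28.6, 81.4 and 35.3 CPM and passed (log2 fold change 3.50, SE 0.76, edgeR adjusted p = 0.00301).

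Cytokinesis, the final splitting of the cell, is represented by 3 genes: Anln, a scaffold of the contractile ring, and Ect2 and Racgap1, which place it. Racgap1 alone rose at D1 and D10, all 3 rose at D2 and D3, and all 3 fell from D3 to D10. Racgap1 stood at 1.43 and 7.55 CPM in the controls, at 13.8, 10.3 and 2.09 CPM at D1 and at 107, 118 and 60.6 CPM at D2. At D10 it stood at 12.5, 9.57 and 12.4 CPM, each above the higher control. Anln stood at 1.97 and 3.24 CPM in the controls, 4.81, 3.70 and 0.232 CPM at D1, 47.6, 44.4 and 30.9 CPM at D2 and 9.40, 4.67 and 2.66 CPM at D10. Its D10 libraries overlap the controls.

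The chromosome structure role holds 6 genes: Mki67, which coats mitotic chromosomes and is the antigen of the Ki-67 stain, Top2a, which untangles DNA, the condensin subunits Smc2 and Smc4, Cdca2 and the DNA-bending protein Hmgb2. It had 1 gene up at D1 (Smc2), 6 of 6 at D2 and D3 and 0 at D10, and 5 fell from D3 to D10. The D1 count of 1 of 6 lies below the 23.9% of all genes that rose. Mki67 stood at 0.179 and 9.17 CPM in the controls, a wide gap, and at 5.69, 4.84 and 0 CPM at D1. At D2 it stood at 133, 452 and 123 CPM, of which the highest is the sum with 23 cells. At D10 it stood at 30.4, 8.17 and 12 CPM, overlapping the resident control, with a log2 fold change of 2.86 (SE 1.20, edgeR adjusted p = 0.152). It passed with sequencing pool as a term (3.43) and with no expression filter (2.79), and was -0.11 without clusters 6, 7 and 10. Top2a stood at 0.893 and 20.5 CPM in the controls, at 35.4, 28.2 and 0.696 CPM at D1 and at 386, 429 and 227 CPM at D2. Hmgb2 was present in every library: 73.1 and 127 CPM in the controls, 151, 118 and 52.2 CPM at D1, 695, 577 and 544 CPM at D2 and 102, 80.1 and 129 CPM at D10. It rose by 2.97 on the log2 scale at D2 (SE 0.44, edgeR adjusted p = 0.000163). Its share of the summed level was 8.36 to 40.6% over the 17 microglia sums (median 15.5%), so the sum is also given without it among the alternatives.

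At D3 the genes did not keep the same proportions in all libraries. Mixed libraries 1 and 2 of D3 form a pool of their own and have the lowest median UMIs per cell, 1673 and 1577. In them Mki67 stood at 14.4 and 16.9 CPM, against 168 CPM in mixed library 3 and 89.3 and 85.7 CPM in the resident libraries. Hmmr stood at 12.4 and 6.75 CPM against 61.6, 61.5 and 42.9 CPM, and Kif15 at 10.3 and 1.69 CPM against 13.2, 21.8 and 22.6 CPM. Ccnb1 went the other way, with 103 and 135 CPM against 33.3, 59.6 and 58.7 CPM, and Cdk1 with 188 and 182 CPM against 52.2, 147 and 138 CPM. The summed levels of the 2 libraries (3403 and 3523 CPM) lay inside the range of the other 3. Pool and depth move together here, and their part in these proportions was not tested. Without the 2 libraries, the counts of genes called were 49 for D3 against Ctrl, 48 for D3 against D1 and 41 for the fall to D10.

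The 49 genes were set beside genes of DNA replication, the phase before G2, in microglia. A list of 31 genes of replication and of the step from G1 to S phase had 21 genes up at D1, 22 genes at D2 and 14 genes at D3, where 23.9, 17.6 and 20.1% of all genes rose, and 0 at both D10 and D21. Of these, Rrm2, a subunit of the enzyme that makes deoxynucleotides, had a log2 fold change of 4.03 at D1 (SE 1.12, edgeR adjusted p = 0.00728) and 6.49 at D2, and Ccne1, the cyclin of S-phase entry, 3.63 at D1. From D1 to D2, 2 of the 31 replication genes rose, Tk1 (3.82) and Tyms (1.21), a share near the 4.76% of all genes; the difference from the mitosis genes was not tested. The summed CPM of the mitosis genes divided by that of the replication genes was 0.499 and 0.379 in the controls and 0.371, 0.369 and 0.315 at D1. It was 2.52, 2.25 and 2.43 at D2, ran from 1.91 to 3.94 at D3 (median of 5 libraries 2.20), and was 1.54, 1.21 and 1.76 at D10 and 0.797 at D21. The D1 libraries lay below both controls, D1_mixed 1 and 2 only slightly below the resident control at 0.379. The 2 controls differ in sort and sex. Every D2, D3 and D10 library lay above both. The ratio depends on the efficiency with which each gene is counted and has meaning only between libraries.

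**Figure D3:**
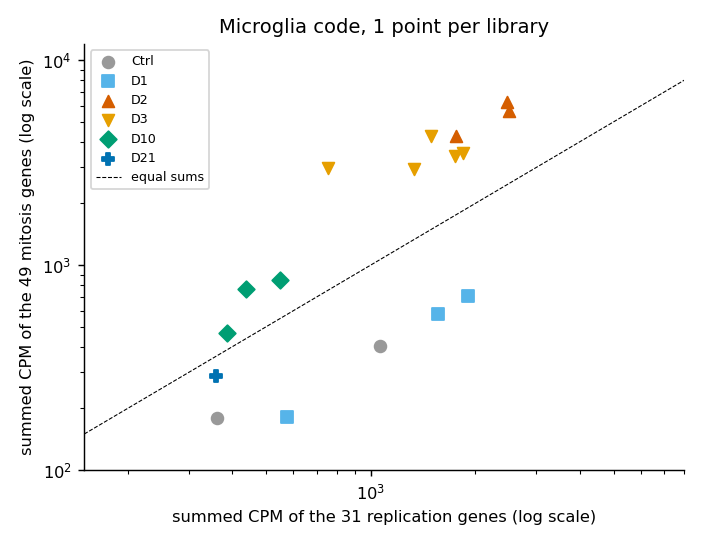
Summed CPM of the 49 mitosis genes against that of the 31 replication genes (both axes log), 1 point per microglia library, shape and colour by time point; the dashed line marks equal sums. The 3 D1 libraries lie below the line at ratios of 0.315 to 0.371, and all D2, D3 and D10 libraries lie above it.

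Other genes of the same process were counted from lists that do not overlap the 49. Of 37 other mitosis genes, 34 rose at D2 and 33 at D3 against Ctrl, and 25 fell from D3 to D10; the kinase Nek2 (log2 fold change 8.43) and the motor Kif14 (7.98) changed most at D2. At D1, 16 rose and Espl1, the separase that cuts cohesin, fell by 1.93 on the log2 scale, where 22.7% of all genes fell. Of 17 transcription factors of the cell cycle programme, 6 rose at D2, led by E2f8 (4.59) and Foxm1 (4.34), where 17.6% of all genes rose. At D1, 2 of them rose, Tfdp1 (2.03) and E2f4 (0.99). The 3 that fell were Rbl2 (-2.40) and Rb1 (-1.79), whose products repress cell cycle genes in resting cells, and Lin9 (-1.21), a subunit of the MuvB core. Both shares lie below the 23.9% of all genes that rose and the 22.7% that fell at D1. Of 13 tested CDK inhibitors and antiproliferative genes, 4 rose at D2, led by Cdkn2a (3.25) and Cdkn2c (3.15), and 5 fell, led by Btg2 (-3.27) and Cdkn1c (-3.13), where 17.6% of all genes rose and 12.2% fell. Of 17 subunits and regulators of the anaphase-promoting complex, 5 rose at D2, led by the inhibitor Fbxo5 (3.22), beside the same 17.6% of all genes; whether these short lists differ from all genes was not tested. The 5 genes outside the 49 whose log2 level was most like the mean of the 49 over the 17 microglia sums were H2afz (Pearson r = 0.987), Knstrn (0.984), Stmn1 (0.983), Ska1 (0.981) and Pimreg (0.978). Among the 49 themselves, Racgap1 was closest to the mean of the others (0.990) and Kif15 least close (0.802). These correlations describe 17 sums that share time points.

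By cluster, 3 of the 16 deposited clusters held most of the UMIs of the 49 genes. Clusters were made from these cells, so levels between clusters are a description. Cluster 6 (1515 cells, microglia code) stood at 9623 CPM and held 31.9% of all UMIs of the 49 genes. Cluster 10 (182 cells, macrophage code) stood at 10150 CPM and held 20.3%, and cluster 7 (67 cells, microglia code) stood at 13720 CPM and held 7.38%. Next came cluster 5 of the microglia code at 944 CPM, the neutrophil-like cluster 16 at 803 CPM and cluster 13 of the macrophage code at 790 CPM, and the other 10 clusters lay between 174 and 405 CPM. In cluster 7, 54 of 67 cells came from D2_resident 1, and the median UMI count was 13526, against 2581 in cluster 6. No doublet caller was run, and the part of cell doublets in cluster 7 was not tested.

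**Figure D4:**
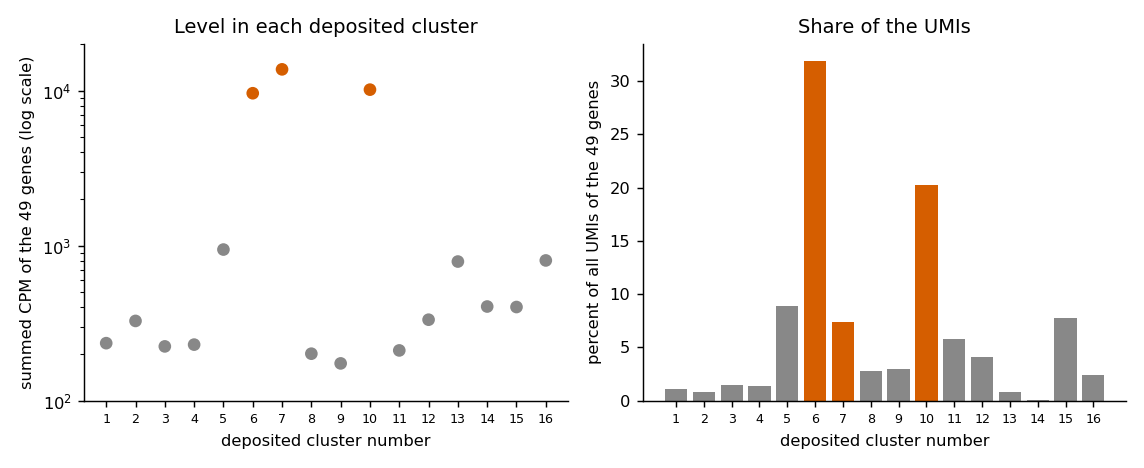
Summed CPM of the 49 genes in each of the 16 deposited clusters (left, log axis) and the percent of all their UMIs that each cluster holds (right). Clusters 6, 7 and 10, in orange, lie at 9623, 13720 and 10150 CPM, and every other cluster lies at 944 CPM or lower.

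Cells had been assigned to clusters from their expression, so a level inside a cluster is a description. In cluster 6, over 15 libraries with at least 5 of its cells it ran from 6223 to 15317 CPM, with a median of 9769 CPM. It was 6223 and 7257 CPM at D1, 6502 to 10232 CPM at D2, 8502 to 15317 CPM at D3, 9170 to 12301 CPM at D10 and 9744 CPM at D21. The share of microglia in clusters 6, 7 and 10 was counted as well. It was 0 of 1429 and 0 of 458 microglia in the controls, which allows up to 0.21% and 0.655%. At D1 it was 1.5, 1.39 and 0.303%. Later it was 48.1, 43.5 and 34.3% at D2, 27.4, 28.7 and 19.0% in the mixed and 26.9 and 33.5% in the resident libraries at D3, 5.65, 3.70 and 4.52% at D10 and 1.44% at D21 (95% exact binomial interval 0.809 to 2.37%). Every D10 library lay above every D1 library in this share. These cells held 82.4 to 88.9% of the microglial UMIs of the 49 genes at D2, 75.7 to 87.3% at D3, 59.2 to 69.4% at D10 and 45.9% at D21, but 7.97 to 15.6% at D1.

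The genes were also compared outside these clusters. With clusters 6, 7 and 10 left out, the summed level in microglia was 291 ± 157 CPM in Ctrl (n = 2), 430 ± 237 at D1 (n = 3), 1654 ± 681 at D2 (n = 2), 860 ± 179 at D3 (n = 5), 242 ± 41.5 at D10 (n = 3) and 157 CPM at D21. In the fit over these sums, 13 of the 49 genes rose against Ctrl at D1, 44 genes at D2, 27 genes at D3 and 1 gene at D10. Of all 10945 genes in that fit, 22.0, 14.0, 16.4 and 6.09% rose in the same order, so the D1 count is near the share of all genes and the D10 count below it. On the plain CPM scale, the D10 level without these clusters lay in the range of the controls. In cluster 5 the level was 184 to 669 CPM at D1, 1810 to 2622 CPM at D2, 1005 to 2550 CPM at D3, 505 to 1160 CPM at D10 and 331 CPM at D21.

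The genes differed in how far they kept to the 3 clusters. Cenpf reached at most 1.95% of its cluster 6 level in any cluster outside 6, 7 and 10, Ube2c 2.66% and Nusap1 3.02%. At the other end, 9 of the 49 reached 20% or more. Cks2 stood at 141 CPM in the neutrophil-like cluster 16, 60.5% of its level in cluster 6. Hmgb2 stood at 513 CPM in cluster 13 (48.5%) and Cenpa at 98.3 CPM in cluster 12 of the macrophage code (28.5%). For 33 of the 49 genes the highest level outside was in cluster 5.

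Cluster 10 was compared with cluster 6 as the macrophage and the microglia counterpart. Of the 9 microglia markers, 9 were at 20 CPM or more in cluster 6 and 4 in cluster 10; of the 8 monocyte markers, 1 and 7. All 6 markers of granulocyte or myeloid progenitors (such as Mpo and Elane, granule proteins of precursors in bone marrow) were at that level in cluster 10, with a sum of 2998 CPM, against 1 marker and 212 CPM in cluster 6. The marker counts of cluster 10 came unevenly from its libraries. D3_mixed 3 gave 107 of its 182 cells and 0.269% of its progenitor marker UMIs, at 22.9 CPM. The 12 cells of D10_mixed 2 gave 57.4% (11003 CPM), the 9 of D21_infiltrating 1 gave 17.9% (5759 CPM) and the 8 of D10_mixed 1 gave 15.9% (4730 CPM). So the summed value describes cells of a few libraries and not the cluster as a whole. With all libraries pooled, Pbk stood at 90.9 CPM in cluster 10 against 237 CPM in cluster 6 (ratio 0.384), Cdk1 at 162 against 334 CPM (0.485), Kif2c at 36.3 against 73.3 CPM (0.495) and Ccnb1 at 110 against 180 CPM (0.611). Hmgb2 stood at 2013 against 1058 CPM (1.90), Kif15 at 78.5 against 43.2 CPM (1.82), Kif23 at 118 against 71.6 CPM (1.65) and Mki67 at 356 against 219 CPM (1.63). In all, 28 of 49 genes were lower in cluster 10. Inside D3_mixed 3, which held 107 cells of cluster 10 and 99 of cluster 6, 47 of 49 genes were lower in cluster 10. The ratios of Pbk (0.559) and Cdk1 (0.766) stayed below 1 there, while those of Hmgb2 (0.751), Kif15 (0.815), Kif23 (0.72) and Mki67 (0.44) lay on the other side. So the pooled ratios above 1 depend on which libraries fill each cluster. Against cluster 6, cluster 7 was higher in 42 of 49 genes, most of all in Kif15 (4.88-fold), Cdca2 (4.09-fold) and Mki67 (3.65-fold). Inside D2_resident 1, with 54 and 461 cells of clusters 7 and 6, 40 of 49 were higher, led by Kif15 (5.45-fold), Cdca2 (5.34-fold) and Mki67 (3.75-fold).

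The share of microglia with these transcripts was also counted at equal depth. Each cell was thinned to 2000 UMIs, shallower cells were left out, and cells with at least 3 UMIs of the 49 genes were counted. Of all cells kept, 99.9% of cluster 6, 100% of cluster 7 and 89.0% of cluster 10 reached 3 UMIs. In microglia the mean over libraries was 3.05 ± 2.91% in Ctrl (n = 2), 9.99 ± 7.94% at D1 (n = 3), 65.0 ± 14.5% at D2 (n = 2), 44.0 ± 3.82% at D3 (n = 5) and 7.41 ± 1.11% at D10 (n = 3), and it was 3.14% at D21. Unthinned, these shares were 10.5, 19.7, 71.8, 46.3, 14.6 and 7.40%. At D3, 1205 microglia were left out as too shallow and 960 kept. Neutrophil-like cells, which have left the cell cycle, gave 27.5 and 13.4% in the 2 libraries of D1 and 34.6 and 0% (0 of 22 cells) in those of D2. Without Hmgb2 they gave 6.87, 1.82, 1.60 and 0%. Every Ctrl, D1, D10 and D21 microglia library of the comparisons lay inside the first range. Without Hmgb2, D1_mixed 1 and 2 (11.6 and 8.57%) lay above the neutrophil-like libraries, and the other libraries of these times lay inside their range. All D2 and D3 microglia libraries lay above both ranges, at 37.5% or more and without Hmgb2 at 32.3% or more. The median depth of the kept neutrophil-like cells was 2476 UMIs and that of microglia 3754 UMIs.

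In macrophages the genes were low at D1 and differed widely between libraries later. The summed level at D1 was 283 and 212 CPM in infiltrating libraries 1 and 2 and 169 and 163 CPM in mixed libraries 1 and 3. At D2 it was 279 CPM in the infiltrating library and 1099 and 214 CPM in mixed libraries 1 and 2, and at D3 it was 560 and 510 CPM in the infiltrating and mixed library. At D10 the infiltrating libraries 1 and 2 stood at 397 and 1476 CPM and the mixed libraries 1 and 2 at 6362 and 5228 CPM. At D21 the infiltrating library stood at 6306 CPM and the mixed library at 128 CPM, the lowest of all 15. D3 and D10 lay above D1 in every library, and D2 and D21 overlapped D1. The means were 207 ± 55.3 CPM at D1 (n = 4), 531 ± 493 at D2 (n = 3), 535 ± 35.4 at D3 (n = 2), 3366 ± 2877 at D10 (n = 4) and 3217 ± 4369 at D21 (n = 2). The resident sort also held cells of the macrophage code, which entered no comparison. Their level was 447 CPM in D2_resident 1 (185 cells), 293 and 313 CPM in D3_resident 1 and 2 (40 and 79 cells) and 298 CPM in D10_resident 1 (134 cells), the last below all 4 D10 libraries above.

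The share of macrophages with at least 3 UMIs of the genes, thinned to 2000 UMIs as for microglia, was 2.88 ± 1.30% at D1 (n = 4), 2.71 ± 1.75% at D2 (n = 3) and 4.63 ± 1.05% at D3 (n = 2). At D10 it was 2.46 and 7.22% in infiltrating libraries 1 and 2 and 31.4 and 32.7% in mixed libraries 1 and 2, and at D21 it was 17.1% in the infiltrating and 1.69% in the mixed library. Unthinned, the means were 31.1, 30.3, 33.1, 31.6 and 14.5% from D1 to D21, so the order of the time points seen at equal depth was not seen without thinning. The neutrophil-like libraries (0 to 34.6%) span all of these thinned values. That range includes Hmgb2, which made up 54.5 to 84.4% of the neutrophil-like sums. Without Hmgb2 the neutrophil-like range was much lower, as given above, and the macrophage libraries are not set against it here.

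Few cells carried these levels. In D2_mixed 1, 1 of 69 macrophages lay in clusters 6, 7 and 10, and it held 86.5% of the 460 UMIs of the 49 genes. In D3_mixed 3 such cells were 107 of 3019 (3.54%, 95% exact interval 2.91 to 4.27%) and held 70.0% of the UMIs. In D10_mixed 1 and 2 they were 8 of 53 and 12 of 68 cells, 15.1% (6.75 to 27.6%) and 17.6% (9.47 to 28.8%), with 96.3 and 95.7% of the UMIs. In D10_infiltrating 1 and 2 they were 3 of 549 and 2 of 116 cells. In D21_infiltrating 1 they were 9 of 89 cells (10.1%, 4.73 to 18.3%), with 97.2%, and in D21_mixed 1 they were 0 of 78, which allows up to 3.85%. The 3 libraries with the highest levels are the same 3 in which the progenitor markers were high: 2532 and 6244 CPM in D10_mixed 1 and 2 and 2572 CPM in D21_infiltrating 1, against 7.80 to 71.7 CPM in the other 12. The part of precursor cells in the level of the 49 genes was not tested. With clusters 6, 7 and 10 left out, the level was 195 ± 35.4 CPM at D1 (SD, n = 4) and 187 ± 40.1 CPM at D2 (n = 3). It was 234 ± 103 CPM at D3 (n = 2), 386 ± 142 CPM at D10 (n = 4) and 222 ± 133 CPM at D21 (n = 2).

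**Figure D5:**
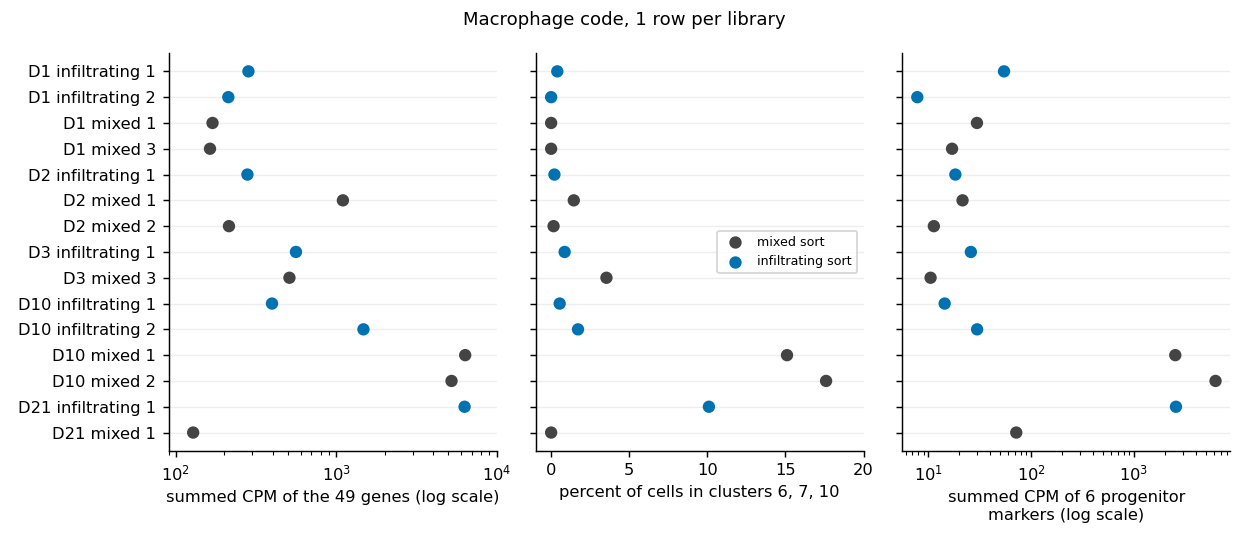
Macrophage libraries from D1 to D21, 1 row each: summed CPM of the 49 genes (left, log axis), percent of cells in clusters 6, 7 and 10 (middle) and summed CPM of 6 progenitor markers (right, log axis), coloured by sort. D10 mixed 1, D10 mixed 2 and D21 infiltrating 1 are high in all 3 panels, and D3 mixed 3 has 3.54% in the middle panel with low progenitor markers (10.5 CPM).

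By edgeR, all 49 genes were tested in macrophages among 8577. From D1 to D2 and from D1 to D3 no gene of the 49 passed, and 0.00% of all genes rose in either comparison; at an unadjusted p under 0.05 there were 3 and 4 of the 49, and DESeq2 with the same terms called 0 and 0. For D2 against D1 the groups did not overlap for 11 of the 49 genes, against 2.24% of all genes, and for D3 against D1 for 43 genes, against 9.46%. At D10, 38 of 49 rose against D1, where 7.31% of all genes rose, and 36 did not overlap, against 9.81%. At D21, 16 of 49 rose, where 1.95% of all genes did, and 11 did not overlap, against 9.78%. From D3 to D10 no gene of the 49 passed (20 at an unadjusted p under 0.05, and 3 by DESeq2), where 0.0933% of all genes rose. With mixed libraries alone, 45 genes were called from D1 to D10. More genes than in the main fit were also called from D1 to D3 and from D3 to D10, where D3 is then 1 library. The share of all genes called in that fit is not given here. Every D10 library lay above both D3 libraries for 4 genes, against 6.46% of all genes. The 11 that did not pass at D10 were Birc5, Bub1, Bub1b, Ccnb1, Ccnb2, Cenpa, Ect2, Hmmr, Kif20a, Kif23 and Nuf2. The D10 count was 1 without D1_infiltrating 2, 13 without D10_mixed 1, 15 without D10_mixed 2 and 0 without the cells of clusters 6, 7 and 10. The D21 count was 0 without D1_infiltrating 2 or D21_infiltrating 1 and 41 without D10_infiltrating 1.

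Markers of cell identity differed between these macrophage sums too. The macrophage markers summed to 10564 to 22339 CPM in the D1 libraries and to 2793 to 9136 CPM in those of D10, with no overlap. The monocyte markers stood at 4602 to 7901 CPM at D1, at 790 and 1630 CPM in the infiltrating libraries 1 and 2 of D10 and at 5324 and 5068 CPM in the mixed. The microglia markers stood at 305 to 1362 CPM at D1, at 3596 and 3479 CPM in the infiltrating and at 1085 and 964 CPM in the mixed libraries of D10. At D21 the infiltrating and the mixed library held 3671 and 7977 CPM of the macrophage, 2463 and 108 CPM of the monocyte and 2363 and 4441 CPM of the microglia markers. The part of these differences in the calls was not tested.

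Among single genes in macrophages, Aurkb stood at 0.793, 0.187, 0 and 0 CPM in the D1 libraries (infiltrating 1 and 2, mixed 1 and 3) and at 3.72, 23.1, 53.7 and 59.9 CPM in the D10 libraries (infiltrating 1 and 2, mixed 1 and 2). All D10 libraries lay above all D1 libraries, and the log2 fold change was 5.14 (SE 1.03, edgeR adjusted p = 0.00731). Mki67 stood at 2.11, 3.25, 0 and 0 CPM at D1 and at 9.42, 74.4, 190 and 153 CPM at D10 (log2 fold change 4.69, SE 1.04, edgeR adjusted p = 0.011). Mad2l1 stood at 0.793, 1.19, 4.24 and 0 CPM at D1 and at 5.20, 8.27, 35.8 and 26.6 CPM at D10 (log2 fold change 3.62, SE 0.73, edgeR adjusted p = 0.00741). Pbk had 1 count at D1 and 89 at D10, a ratio of pooled levels of 460 (95% counting interval 80.4 to 18361), and Cdca2 had 1 and 43, a ratio of 222 (37.8 to 8975). Cenpa did not pass. It stood at 77.0, 42.7, 25.4 and 7.30 CPM at D1 and at 19.8, 29.8, 223 and 193 CPM at D10. The groups overlap, and its log2 fold change was 1.18 (SE 0.88, edgeR adjusted p = 0.394). With mixed libraries alone it passed (4.004, edgeR adjusted p = 0.000195), and without clusters 6, 7 and 10 it was -1.53. Of the other lists, 19 of 31 replication genes, led by Dtl (6.61) and Rrm2 (6.12), and 17 of 31 tested other mitosis genes, led by Ska1 (6.75), rose at D10, where 7.31% of all genes rose. Of 11 tested CDK inhibitors and antiproliferative genes, 2 rose, Cdkn2c (3.13) and Ccng2 (1.68), and 2 fell, Cdkn1a (-3.02) and Gadd45b (-2.36), where 7.31% of all genes rose and 7.04% fell.

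The change between time points was also compared between the cell types, in 1 edgeR fit over the 32 sums of both. Mixed libraries give a sum to each cell type, so the sums are not fully independent. From D3 to D10 the macrophage change was above the microglia change for 30 of 49 genes, where 1.49% of 11486 genes were, with a median difference of 4.80 on the log2 scale. The largest were Ccna2 (5.99, SE 1.57, edgeR adjusted p = 0.0416), Kif11 (5.66, SE 1.26, adjusted p = 0.0259 by edgeR) and Cdc20 (5.61, SE 1.20, adjusted p = 0.0236 by edgeR). In microglia Cdc20 went from 74.2, 96.2, 27.7, 43.7 and 42.9 CPM at D3 to 10.0, 3.97 and 14.6 CPM at D10. In macrophages it went from 4.17 and 3.72 CPM to 3.72, 13.2, 74.8 and 57.7 CPM. From D1 to D2 the change differed for Cenpa alone among the 49, lower in macrophages by 5.26 (SE 1.05, edgeR adjusted p = 0.0414), where 0.0609% of all genes were lower. That call was lost in 16 of 24 fits that left out 1 library, with mixed libraries alone and without clusters 6, 7 and 10. From D1 to D3 none of the 49 passed by edgeR (6 at an unadjusted p under 0.05), where 0.0697% of all genes were lower. The D10 count was 0 without the cells of clusters 6, 7 and 10, 0 without D10_mixed 1, D10_mixed 2 or D3_infiltrating 1, and 49 without D10_infiltrating 1.

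Dendritic-like and neutrophil-like cells were described by level alone. Dendritic-like sums of at least 20 cells stood at 255 and 335 CPM at D1, 330 and 369 CPM at D2, 429 and 1057 CPM at D3, 314 and 377 CPM at D10 and 896 CPM at D21 (25 cells). Neutrophil-like sums stood at 869 and 558 CPM at D1 and 1124 and 572 CPM at D2. Hmgb2 alone made up 54.5 to 84.4% of the neutrophil-like sums (median 62.2%) and 25.6 to 51.2% of the dendritic-like sums (median 43.8%), against 10.4 to 53.7% (median 30.3%) in macrophages.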

How the data were processed

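The authors deposited, per the labels and file headers, a matrix of raw UMI counts (genes by cells) for every library, with a table giving each cell's cluster, cell type code and sequencing pool. The submitters' processing notes name Cell Ranger 3.1.0 and GRCm38 (mm10); their roles, the annotation and the cell filters are not given in the sources used here. Series-wide matrices were not used here. The cells' count sums equalled the deposited totals for 30958 of 30958 cells. All deposited cells were kept. Doublets were not called, and ambient RNA was left in.

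Counts were summed per library and cell type (at least 20 cells) and tested with edgeR 4.0.16 in R 4.3.3: TMM scaling, filterByExpr, the quasi-likelihood test, time point and sex as terms, 2-sided, Benjamini-Hochberg over all genes tested, threshold 0.05. Microglia entered from resident and mixed libraries (17 sums, 135097 to 7794902 UMIs, 10 residual degrees of freedom) and macrophages from infiltrating and mixed libraries (15 sums, 235999 to 22068469 UMIs, 9). D1 is the reference for macrophages because the controls held no macrophage sum of 20 cells. The SE given with a log2 fold change is its absolute value divided by the square root of the test's F value. It is derived from the test and not estimated on its own. DESeq2 1.42.0 was an alternative. Tested on simulated data, the microglia D2 against Ctrl comparison (10801 genes) recovered 6 of 50 genes changed 2-fold, 37 of 50 changed 4-fold and 48 of 50 changed 8-fold, with 5 of 10601 unchanged genes called. The simulated libraries shared 1 mean profile, few genes were changed, all upward, and sex, sort and pool had no effect. In the real comparison 3210 genes were called, so the low count of false calls may not carry over to it.

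The 49 genes, the roles, the other lists and the tests were chosen with earlier results of these data known. Named were a set of genes per role, the 3 largest changes per comparison and genes that went against the rest; per other list, the 2 largest changes each way. The test of the difference between cell types, the fit with no sex term and the fit without 2 D3 libraries were added after seeing the data. Counting intervals and limits cover counting error only, at a level of 95%. Summed levels and shares were not tested. Cell type codes carry numbers; they were named by markers at 20 CPM or more and at least 2-fold higher than elsewhere, after adding 5 CPM. The cells of D2_infiltrating 1, labelled female, carry the sex code of male libraries in the deposited cell table; the label was used.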

Additional observations from a re-analysis of the deposited data

Results flagged for a closer look

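In 96 groups of 4 or 5 libraries, the highest or lowest library was set against the others with Dixon's 95% criterion, and 8 libraries' values stood apart; chance alone gives about 1 in 20 groups. Of these, 6 belong to D1_infiltrating 1 among the 4 macrophage libraries of D1. It had 0.394% of its cells in clusters 6, 7 and 10 (others 0). Its level of Ccnb1, which drives entry into mitosis, was 1.32 CPM (others 0 to 0.187), that of Birc5 5.48 CPM (others 0 to 0.25), that of Cenpe 1.39 CPM (others 0 to 0.125), that of Cenpf 1.59 CPM (others 0 to 0.25) and that of Hmmr 1.45 CPM (others 0). D1_mixed 1 and 3 hold only 28 and 54 macrophages (235999 and 411082 UMIs), with 38 and 34 of the 49 genes at 0 counts, so 1 CPM lies below 1 count there. Among the 5 microglia libraries of D3, Cks2 was low in D3_mixed 3 at 49 CPM (others 95.3 to 113), and Top2a was high in D3_resident 2 at 376 CPM (others 137 to 155).

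The change between time points differed between macrophages and microglia by the edgeR test of that difference for 30 of the 49 genes from D3 to D10. Of all 11486 genes, 1.49% differed in that direction. From D1 to D2 it differed for 1 of the 49, where 0.0609% of all genes were lower in macrophages. The 30 calls fell to 0 without D10_mixed 1, D10_mixed 2 or D3_infiltrating 1, and to 0 without clusters 6, 7 and 10. The log2 differences, macrophages minus microglia, were 5.99 for Ccna2, 5.66 for Kif11 and 5.61 for Cdc20 from D3 to D10, and -5.26 for Cenpa from D1 to D2. The Cenpa call was lost in 16 of 24 fits that left out 1 library, with mixed libraries alone and without clusters 6, 7 and 10.

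The infiltrating sort also held cells of the microglia code that entered no comparison. Their summed level of the 49 genes was 11499 CPM in D3_infiltrating 1 (19 cells), 416 CPM in D10_infiltrating 2 (36 cells) and 3654 CPM in D21_infiltrating 1 (41 cells), each above the higher control library at 402 CPM. D1_infiltrating 1 stood at 2894 CPM (7 cells), while D1_infiltrating 2 (7 cells), D2_infiltrating 1 (3 cells) and D10_infiltrating 1 (10 cells) stood at 242, 367 and 125 CPM, below that control. Sums under 20 cells are below the minimum used elsewhere, and in D21_infiltrating 1 the 2 cells of cluster 6 hold 454 of the 469 UMIs.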

How the results depend on the processing

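The rise of the 49 genes in microglia at D2 against Ctrl was called for 33 genes with sums thinned to equal depth and for 44 to 49 genes in the other alternatives run. Other counts depended on single libraries, on the sort or on clusters 6, 7 and 10, and the cause was not tested unless named. The share of all genes called in each alternative fit is not given below, so these counts are not set against all genes. Control microglia rest on 2 libraries and D21 microglia on 1, so D21 against Ctrl has no value without D21_mixed 1.

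With mixed libraries alone (fewer samples), microglia calls were 5 at D1 and 2 at D10 against Ctrl, 3 from D1 to D2 and 10 from D3 to D10; macrophage calls were 14 at D3 and 0 at D21 against D1 and 40 from D3 to D10; differences between cell types were called for 0 genes from D1 to D2 and 1 from D1 to D3. With sums thinned to equal depth (fewer counts), microglia calls were 1 at D1, 30 at D3, 1 at D10 and 0 at D21 against Ctrl, 26 and 24 from D1 to D2 and D3, and 17 from D3 to D10. Without clusters 6, 7 and 10, microglia calls were 13 at D1, 27 at D3, 1 at D10 and 0 at D21 against Ctrl, 5 and 7 from D1 to D2 and D3, and 9 from D3 to D10. Macrophage calls were then 0 at D10 and 0 at D21, and differences between cell types 0 from D1 to D2 and 0 from D3 to D10. With sequencing pool as a term, microglia calls were 9 at D3 against Ctrl and 0 from D3 to D10, and macrophage calls 0 at D21. For macrophages at D10 against D1, sums of at least 50 cells gave 18 and leaving out cluster 2 gave 16. At D21 against D1 the counts were 37 with DESeq2, 6 with at least 50 cells, 38 with no expression filter, 37 with no sex term, 26 with sort as a term and 6 without cluster 2. From D3 to D10 they were 3 with DESeq2, 4 with no filter and 3 with D3_conflict 1 added. Microglia at D21 against Ctrl gave 6 with DESeq2, 5 with no filter, 5 with no sex term and 5 without the 2 shallow D3 libraries.

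Folds of the summed level against Ctrl in microglia were 22.9 at D2 and 14.2 at D3 from mean log2 levels, 24.9 and 15.6 without Hmgb2, and without clusters 6, 7 and 10 they were 5.68 (D2), 2.96 (D3), 0.832 (D10) and 0.54 (D21). In macrophages against D1 they were 3.89 at D3 from mean log2 levels and 3.86 without Hmgb2, and without those clusters 0.959 at D2, 1.20 at D3 and 1.98 at D10. The thinned share of cells with at least 2 UMIs of the genes was 10.9% in Ctrl, 18.4% at D1, 52.6% at D3, 13.6% at D10 and 6.38% at D21 in microglia, and 9.44, 7.11 and 11.7% at D1, D2 and D3 in macrophages. With at least 5 UMIs it was 35.6 and 5.30% in microglia at D3 and D10 and 0.217 and 2.33% in macrophages at D1 and D3. Thinned to 1000 UMIs it was 33.6 and 5.68% in microglia at D3 and D10 and 0.317, 0.937 and 2.57% in macrophages at D1, D2 and D3. Without Hmgb2 it was 39.9 and 5.78% in microglia at D3 and D10 and 1.05 and 3.42% in macrophages at D1 and D3.

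Leaving out each library in turn, microglia calls ranged from 3 to 38 at D1, 44 to 49 at D2, 46 to 49 at D3, 3 to 32 at D10 and 0 to 7 at D21 against Ctrl, 40 to 49 and 45 to 49 from D1 to D2 and D3, and 8 to 47 from D3 to D10. Macrophage calls ranged from 0 to 0 at D2 and D3, 1 to 48 at D10 and 0 to 41 at D21 against D1, and 0 to 1 from D3 to D10. Differences between cell types ranged from 0 to 49 from D3 to D10 and 0 to 1 from D1 to D2 and D3. Folds ranged from 1.22 to 2.72 at D1, 13.4 to 29.9 at D2, 8.50 to 19.0 at D3, 1.72 to 3.84 at D10 and 0.714 to 1.59 at D21 in microglia. In macrophages they ranged from 1.19 to 3.33 at D2 (lowest without D2_mixed 1), from 2.42 to 2.96 at D3, 11.4 to 21.0 at D10 and 0.618 (without D21_infiltrating 1) to 30.5 at D21. The lowest microglia counts at D1, D10 and D21 and the lowest folds came without Ctrl_mixed 1, and the highest folds without Ctrl_resident 1.

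Among single genes, some values that had not passed changed sign. Ccnb2 at D1 was -0.042 on the log2 scale with thinned sums and 4.41 with mixed libraries alone; leaving out single libraries it ranged from -0.485 (without Ctrl_mixed 1) to 3.379 (without Ctrl_resident 1). Kif15 at D1, -3.17 with thinned sums, ranged from -1.262 (without Ctrl_mixed 1) to 0.372 (without Ctrl_resident 1) with single libraries left out and was 0.009 without D1_mixed 3. Without clusters 6, 7 and 10, Mki67 at D10 was -0.11 in microglia and Cenpa at D10 was -1.53 in macrophages. Ndc80 from D3 to D10 was 1.15 with pool as a term. Ube2c at D21, which had passed, was -2.10 with thinned sums (edgeR adjusted p = 0.726).

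D1_mixed and D3_mixed share replicate numbers 1 to 3. Their same-numbered deviations correlated by 0.000567, 0.178 and 0.149 over 7559 genes, so the numbers were not taken to pair the libraries; with the replicate block 34 genes rose from D1 to D3, against 35 in the same 6 libraries without it.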

Other observations

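The library whose labels disagree on its sort, D3_conflict 1, was taken into none of the main comparisons, only into 1 alternative macrophage fit. Its macrophages (2367 cells) stood at 418 CPM for the sum of the 49 genes, its dendritic-like cells at 395 CPM and its neutrophil-like cells at 861 CPM, and it held 8 cells of the microglia code.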
